A study of Homo sapiens with 4 samples.

Results

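The major histocompatibility complex (MHC) was examined by ATAC-seq, which marks open chromatin by where the Tn5 transposase can cut, in the colorectal carcinoma line HCT116. Peak intervals from 4 libraries that shared at least 1 bp were merged, and the merged regions lying on chromosome 6 between 28500 and 33500 kb (hg38) were taken. These were 509 of 122856 regions (0.414%), and none crossed either border. All cells were stably transduced with a pSin lentivirus and kept under puromycin. The 2 control libraries carried the empty vector and the 2 FOXD2 libraries carried the full-length FOXD2 coding sequence, FOXD2 being a forkhead transcription factor. Whether libraries within a group derive from independent cultures is not stated in the labels, so their spread may be technical.

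The MHC carries the genes by which cells show peptides to T cells. Class I proteins (HLA-B and HLA-C among them) are made by nearly all nucleated cells and present peptides cut by the proteasome and pumped by TAP, while class II proteins are chiefly made by antigen-presenting immune cells and, in epithelia, after interferon gamma. Class II promoters are recognised through short upstream boxes, the Y box (CCAAT) among them, and are switched on by the co-activator CIITA. Between both lies class III, a dense stretch of genes for complement, tumour necrosis factor relatives, heat shock proteins and many housekeeping functions.

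The complex was divided by the midpoint of each region. The class I part ran from 28500 kb to the end of MICB (31511124) and was split at the end of MOG (29672365) into an extended stretch and class I proper. The class III part ran on to the end of NOTCH4 (32224067). The class II part covered the rest and was split at the start of COL11A2 (33162694) into class II proper and an extended stretch. A gene is called open below where a region lay within 1000 bp of either of its ends in all 4 libraries, silent where none did in any library, and partial otherwise. No transcript was measured, so silent refers to chromatin only. A region over 1000 bp from both ends of every protein-coding gene is called distal.

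The promoters of HLA genes that differed in state are shown first, as RefSeq windows of GRCh38.p14 from 250 bases before to 50 bases after the annotated start, read 5′ to 3′ on the strand of the gene. HLA-B (chr6:31357130-31357429, minus strand), HLA-DRB1 (chr6:32589799-32590098, minus strand), HLA-DQB1 (chr6:32666608-32666907, minus strand) and HLA-DPB1 (chr6:33075740-33076039, plus strand) were open in all 4 libraries. HLA-DOA (chr6:33009542-33009841, minus strand) and HLA-DPA1 (chr6:33080699-33080998, minus strand) had a region at this end in the controls and in neither FOXD2 library. HLA-DQA1 (chr6:32637156-32637455, plus strand) was silent. Capitals mark matches, on either strand and allowing overlap, to any of 6 motifs searched in every window. These were the Y box, with the letters CCAAT, and the cyclic AMP response element that also resembles the X2 box, with the letters TGACGT. The interferon response element was spelled GAAANNGAA and the kB site of the NF-kB family was spelled GGGANTNCC. The forkhead motif was searched as TGTTTAC and the box bound by the TATA-binding protein was searched as TATAAA.
HLA-B: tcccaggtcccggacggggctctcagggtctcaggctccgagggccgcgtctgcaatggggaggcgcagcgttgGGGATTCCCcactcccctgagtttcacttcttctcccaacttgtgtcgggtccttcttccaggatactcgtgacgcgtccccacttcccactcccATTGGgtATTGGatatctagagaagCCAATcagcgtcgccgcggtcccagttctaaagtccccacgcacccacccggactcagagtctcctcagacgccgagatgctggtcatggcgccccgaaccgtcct
HLA-DRB1: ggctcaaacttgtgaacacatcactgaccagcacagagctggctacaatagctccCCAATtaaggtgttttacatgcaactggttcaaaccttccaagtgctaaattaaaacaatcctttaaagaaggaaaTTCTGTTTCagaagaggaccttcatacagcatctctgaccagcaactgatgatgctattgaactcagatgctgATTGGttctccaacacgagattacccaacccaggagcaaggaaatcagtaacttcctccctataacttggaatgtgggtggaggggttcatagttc
HLA-DQB1: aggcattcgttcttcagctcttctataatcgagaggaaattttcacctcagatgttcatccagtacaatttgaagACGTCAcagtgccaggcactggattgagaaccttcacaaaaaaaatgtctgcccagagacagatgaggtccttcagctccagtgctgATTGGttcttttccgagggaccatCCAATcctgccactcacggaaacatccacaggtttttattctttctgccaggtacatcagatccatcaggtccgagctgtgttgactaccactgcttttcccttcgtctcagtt
HLA-DPB1: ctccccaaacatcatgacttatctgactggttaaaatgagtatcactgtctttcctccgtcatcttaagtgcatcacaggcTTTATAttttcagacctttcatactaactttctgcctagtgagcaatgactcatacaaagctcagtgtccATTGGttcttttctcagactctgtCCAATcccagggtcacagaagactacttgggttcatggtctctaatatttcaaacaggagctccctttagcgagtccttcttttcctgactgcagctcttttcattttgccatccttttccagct
HLA-DOA: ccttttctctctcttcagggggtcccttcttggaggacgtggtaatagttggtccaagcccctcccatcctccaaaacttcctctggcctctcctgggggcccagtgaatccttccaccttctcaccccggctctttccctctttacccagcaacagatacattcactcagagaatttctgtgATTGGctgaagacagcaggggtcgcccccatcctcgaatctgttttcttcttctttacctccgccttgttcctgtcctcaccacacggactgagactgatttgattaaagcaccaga
HLA-DPA1: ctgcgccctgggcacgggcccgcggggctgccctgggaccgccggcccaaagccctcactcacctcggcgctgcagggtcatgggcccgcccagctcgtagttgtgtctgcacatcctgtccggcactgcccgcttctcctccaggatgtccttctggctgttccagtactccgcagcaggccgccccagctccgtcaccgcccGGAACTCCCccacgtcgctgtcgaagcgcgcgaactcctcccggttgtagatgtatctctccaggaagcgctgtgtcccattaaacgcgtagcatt
HLA-DQA1: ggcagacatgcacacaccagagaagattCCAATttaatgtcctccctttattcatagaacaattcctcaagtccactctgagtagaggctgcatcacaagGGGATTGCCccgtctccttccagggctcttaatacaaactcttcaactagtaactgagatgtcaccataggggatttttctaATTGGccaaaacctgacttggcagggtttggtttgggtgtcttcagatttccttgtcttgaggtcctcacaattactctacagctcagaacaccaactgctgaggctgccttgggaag

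CCAAT was present in 11 of the 12 class II promoters with a window (91.7%), in 5 of 6 class I promoters, in 71 of 154 promoters of the MHC (46.1%) and in 5741 of 15811 promoters overall (36.3%). HLA-DPA1 was the class II gene whose printed window lacked it. That window covers the outer of 2 annotated starts of HLA-DPA1 and lies inside HLA-DPB1, so it describes this start alone. It was also the richest in G and C of those shown, at 66.7%. HLA-DOA had 1 CCAAT, in reverse, whose first base lay at position -67 from the start. The open HLA-DRB1 promoter had one at -46 and another at -195, and the silent HLA-DQA1 promoter had one at -68 and another at -222. The letters were thus present both in promoters with a region and in promoters without one. The forkhead letters TGTTTAC were in none of the 12 class II and 6 class I windows, in 8 of the 154 MHC windows (5.19%) and in 414 of all 15811 windows (2.62%). Interferon response letters were in 1 of 6 class I windows (HLA-F) and 3 of 12 class II windows (HLA-DMB, HLA-DRB1 and HLA-DRB5). They were in 3 of 5 windows of genes that supply class I with peptide (TAP1, TAP2 and TAPBP). Of 7 windows of class III immune genes, 1 had them (CFB). The shares were 20 of 154 MHC windows (13.0%) and 7.06% of all windows. These matches describe letters and do not show that a factor binds there. HLA-E and HLA-DRA have no window in the table.

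The lists ranged from 64675 intervals (FOXD2 replicate 2) to 82739 (FOXD2 replicate 1), with the controls between at 72796 and 77752. Depth is unknown, since the files give no read totals. No interval lay on an alternate haplotype contig, so every value refers to the reference haplotype. The HLA genes are highly variable and several have near-identical copies (C4A with C4B, HSPA1A with HSPA1B, HLA-DRB1 with HLA-DRB5, CYP21A2 and TNXB with pseudogenes), and how reads were shared among them was not tested. At the marker genes, 8 of 8 epithelial genes (EPCAM, CDH1 and keratins among them) were open. Of 4 colon genes 3 were open, CDX1 and CDX2 among them, and VIL1 was partial. Of 8 leukocyte genes, SPI1 was open, 5 were silent (PTPRC, MS4A1, CD14 and CD79A among them), and CD3E and CSF1R were partial. COL1A1 and COL1A2 were open of 6 fibroblast genes, and KDR of 4 endothelial genes. The number of these leukocyte genes with a region at an end was 3 in each control, 2 in FOXD2 replicate 1 and 1 in FOXD2 replicate 2, and any part of this in the class II values below was not tested.

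MHC regions were more often shared between libraries than regions of the genome at large. Of its 509 regions, 246 (48.3%) were in all 4 libraries, where 32.5% of all regions were, and 145 (28.49%) were in 1 library, where 40.8% of all regions were. Gene ends made up 28.49% of MHC regions and 14.9% of all regions. Among distal regions alone, 148 of 364 (40.7%) were in all 4 libraries, against 26.1% over the genome. Gene-end regions alone were not more often shared, with 98 of 145 (67.6%) in all 4 libraries against 68.8% over the genome. The median width of shared regions was 779 bp in the MHC and 748 bp overall. These differences between the MHC and the rest were not tested, since regions are not replicates.

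**Figure D1:**
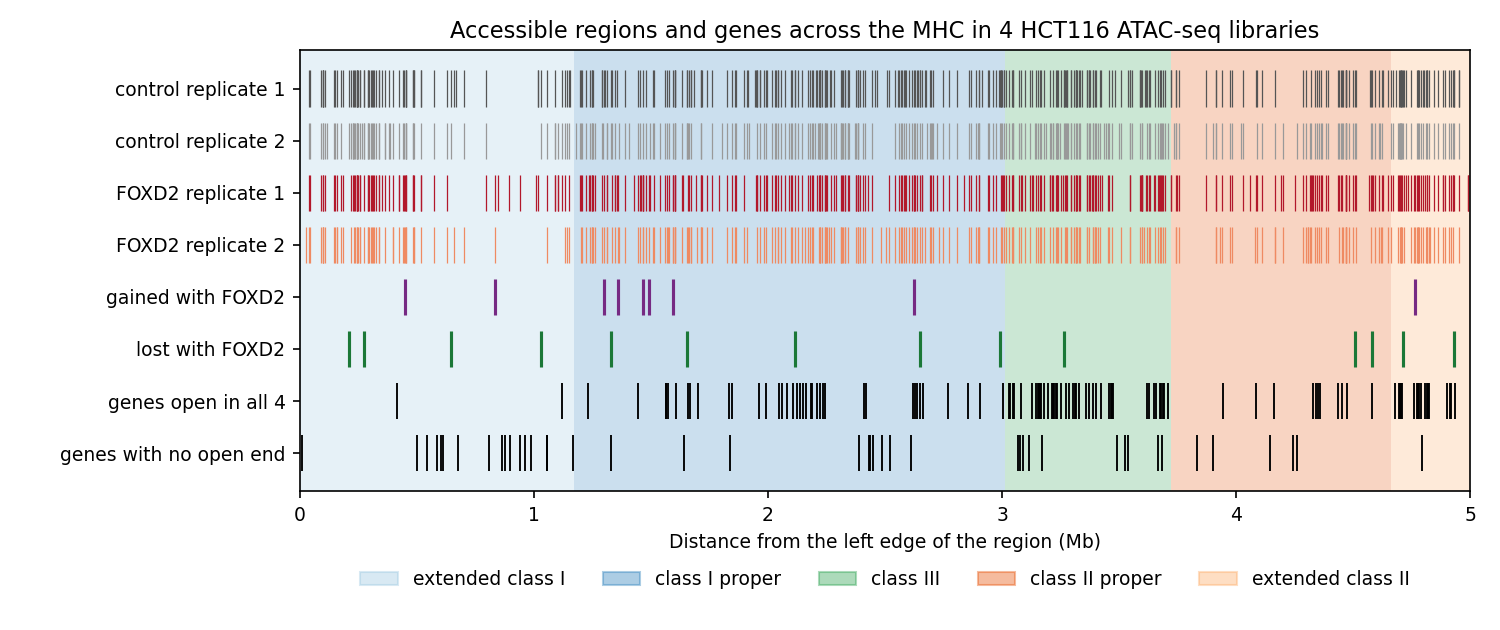
Positions of accessible regions across the MHC, in Mb from its left edge, with a tick for each region in each of the 4 libraries, the regions gained or lost with FOXD2, and genes open in all 4 libraries or with no region at either end. The 4 libraries show the same dense class III and class I proper stretches and the same sparse stretch of the extended class I part, and the 9 gained and 14 lost regions lie scattered.

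The share of each library's regions that fell in the MHC was 0.489% and 0.504% in the controls against 0.464% and 0.519% with FOXD2. The FOXD2 libraries lay on both sides of the controls. The mean was 0.497% ± 0.0106 (SD, n = 2) in the controls and 0.492% ± 0.0390 (SD, n = 2) with FOXD2, a difference of -0.00532 percentage points (two-sided exact permutation test, p = 1). With 2 libraries against 2, that test cannot go below 0.33. For the class I part the shares were 0.290%, 0.291%, 0.263% and 0.308% in the same order (exact p = 1), and the groups overlapped. For the class III part they were 0.0963%, 0.103%, 0.0918% and 0.0961%, where both FOXD2 libraries lay below both controls by a small margin (exact p = 0.33, the smallest possible). For the class II part they were 0.103%, 0.1103%, 0.109% and 0.115% (exact p = 0.667). Adjusted over the 4 comparisons by Benjamini-Hochberg, each exact p was 1, and no difference could be told from the spread between libraries.

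The parts differed in what kind of site was open. The class I part held 288 regions (95.6 per Mb), of which 18.4% were gene ends, 17.4% lay inside a gene and 64.2% lay outside genes. The class III part held 105 regions in a shorter stretch (147.3 per Mb), of which 48.6% were gene ends and 6.67% lay outside genes. The class II part held 116 regions (90.9 per Mb), of which 35.3% were gene ends and 38.8% lay outside genes. Counted in each library on its own, gene ends were 20.5 to 22.2% of the class I regions, 37.5 to 46.8% of the class II regions and 52.7 to 60.0% of the class III regions. The 3 ranges did not overlap in these 4 libraries, with the extended stretches included. Without those stretches, gene ends were 27.2 to 28.8% in class I proper and 27.3 to 35.6% in class II proper, and these ranges overlapped.

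Distal sites ran at a similar density in class I and class III, with 78.0 and 75.7 per Mb, and at 58.8 per Mb in class II. Of the distal regions, 105 of 235 (44.7%) were in all 4 libraries in the class I part, 18 of 54 (33.3%) in class III and 25 of 75 (33.3%) in class II. The share in all 4 libraries was 41.7% in class I proper and 50.6% in its extended stretch, 39.6% in class II proper and 18.2% in its extended stretch. Of the 40 such regions in the extended class I stretch, 30 overlapped a tRNA gene, and no distal region of the other parts did. The density of genes followed another order: 24.2 per Mb in the class I part, 82.8 per Mb in class III and 31.3 per Mb in class II.

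Of 172 protein-coding genes in the MHC, 112 (65.1%) were open, 43 (25.0%) silent and 17 partial. The shares over all 19970 genes were 66.2% open and 23.1% silent, so the complex as a whole stood near the background. The extended class I stretch had 2 open genes of 23, TRIM27 and GABBR1, and 17 silent ones. Class I proper had 38 open of 50 (76.0%), class III 43 of 59 (72.9%), class II proper 11 of 20 (55.0%) and the extended class II stretch 18 of 20 (90.0%). In single libraries, open genes numbered 42, 43, 42 and 42 in the class I part, 45, 47, 45 and 45 in class III, and 33, 33, 31 and 30 in the class II part, with control replicates first. In the class II part both FOXD2 counts lay below both controls, by 2 or 3 genes. Over all genes, 72.9% and 71.1% were open in the controls and 72.0% and 69.3% with FOXD2, so FOXD2 replicate 2 had the lowest share there too, while FOXD2 replicate 1 lay between the controls.

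**Figure D2:**
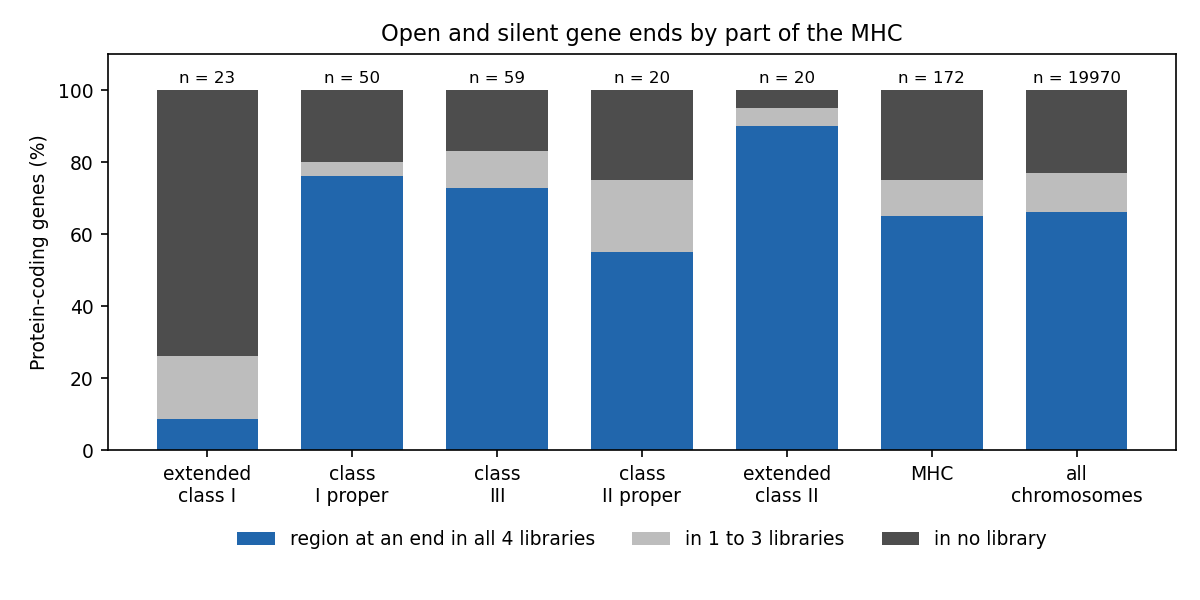
Share of protein-coding genes (%) with a region at an end in all 4 libraries, in 1 to 3 libraries or in none, by part of the MHC and over all chromosomes, with the number of genes above each bar. Open genes make up 8.70% of the extended class I stretch and 90.0% of the extended class II stretch, while the MHC as a whole stands at 65.1% beside 66.2% over all chromosomes.

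The silent genes of the extended class I stretch were largely olfactory receptor genes, which are used in the nose. None of the 14 olfactory receptor genes was open and 12 were silent. OR10C1 had a region at an end in FOXD2 replicate 1 alone, and OR2H2 in both controls and FOXD2 replicate 1. In class I proper the 10 silent genes included HLA-G, the class I gene of the placenta, the mucin genes MUC21, MUC22 and MUCL3, and DDR1, a collagen receptor gene. DDR1 illustrates a limit of using gene ends: it had intervals inside its body in all 4 libraries, at percentiles of 66.7, 80.9, 76.7 and 62.2 for the strongest of them, and was open at its annotated starts. By annotated starts RGL2, LTA, TNXB and ZBTB9 were also open. GABBR1, TRIM31, TRIM10, CDSN, APOM, LY6G6D, LY6G6C and the LY6G6F-LY6G6D readthrough gene had no region there in any library. Their regions lay near an end of the gene for which the promoter windows hold no start. That end can still be the 5′ end. For GABBR1 (minus strand) the region in all 4 libraries (chr6:29632311-29633604) crossed its 5′ end. Also by annotated starts, HLA-G, TRIM40, NOTCH4, COL11A2, SLC44A4 and SMIM40 were partial.

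For each interval the −log10 q of the authors' peak caller was turned into a percentile within its own list, from 0 (weakest) to 100. Percentiles rank peaks within a library and are not amounts of accessibility. They are given below in the order control replicates 1 and 2, then FOXD2 replicates 1 and 2.

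Of 8 class I genes, 7 were open, with HLA-G the exception. HLA-B (chr6:31353875-31357179), a classical presenting molecule, stood at percentiles of 64.6 and 79.4 in the controls and 81.8 and 82.6 with FOXD2. Both FOXD2 libraries were above both controls. HLA-C (chr6:31268749-31272092) stood at 88.7, 88.7, 85.9 and 91.4, and the groups overlapped. HLA-E, the ligand of an inhibitory natural killer cell receptor, ranked higher with FOXD2 (86.5, 85.8, 91.3 and 92.5), as did HLA-F (80.5, 80.0, 83.9 and 84.2) and MICB (76.1, 80.3, 83.3 and 82.8), a stress ligand of NKG2D. MICA, the other stress ligand, stood at 74.1, 63.7, 79.0 and 51.3 and overlapped. Over all shared regions, 20.5% ranked below both controls in each FOXD2 library and 15.8% ranked above them, so single genes with such an order are common.

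The 5 genes that supply class I with peptide were all open. TAP1, a chain of the peptide pump, and PSMB9, an immunoproteasome subunit, are neighbours and shared a region (chr6:32853026-32854543) at percentiles of 98.0, 96.8, 98.8 and 92.7. TAP2, the partner of TAP1, stood at 97.7 and 96.9 in the controls and 91.2 and 85.8 with FOXD2. PSMB8, a second immunoproteasome subunit, stood at 88.8 and 85.8 in the controls and 93.2 and 89.4 with FOXD2, so these neighbours did not move in the same direction. TAPBP, which encodes tapasin, had a region across its annotated start in 3 libraries, at 38.5 and 52.1 in the controls and 17.6 in FOXD2 replicate 2. A second region 895 bp from that start was in control replicate 1 (45.1), FOXD2 replicate 1 (61.4) and FOXD2 replicate 2 (29.9), so every library had a region within 1000 bp of the start. The region at its other end, next to RGL2, was in all 4.

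**Figure D3:**
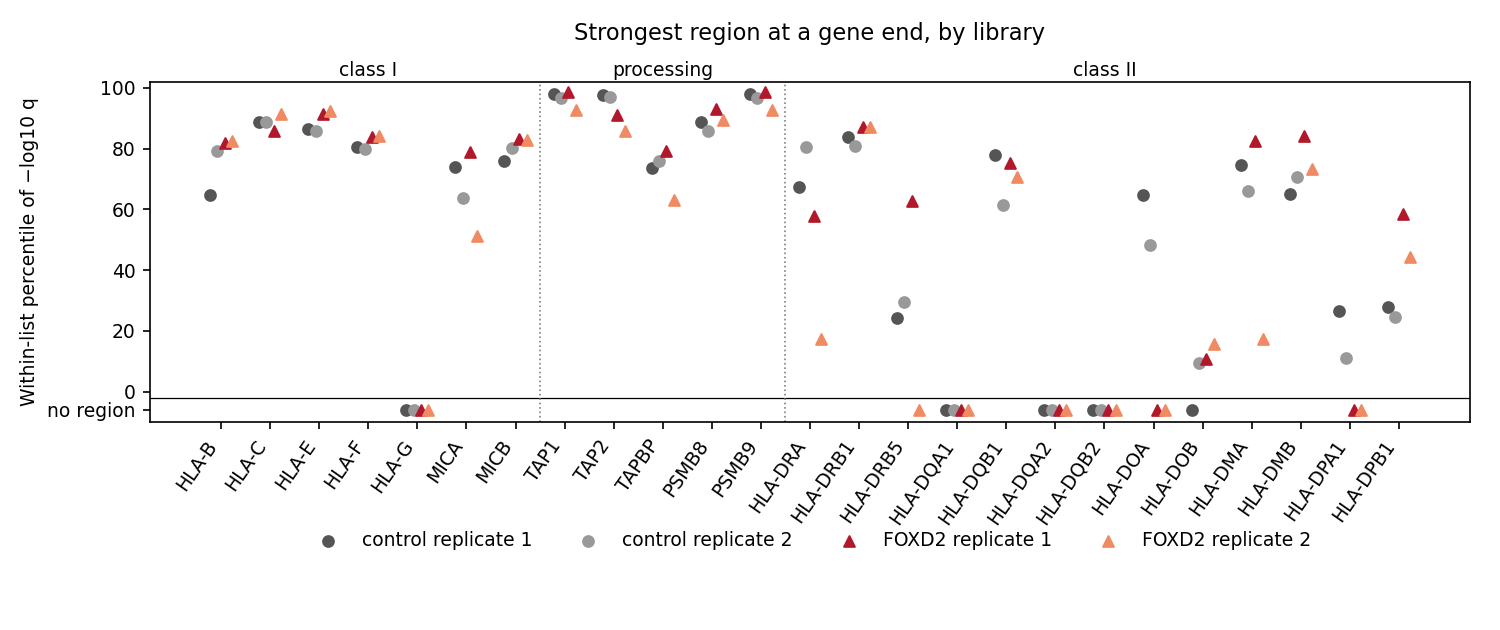
Within-list percentile of −log10 q of the strongest region at an end of 7 class I, 5 antigen processing and 13 class II genes, with circles for controls and triangles for FOXD2 libraries; points under the line have no region. Class I and processing genes sit above 51 in all 4 libraries apart from HLA-G, while class II genes range from 87.3 in HLA-DRB1 to no region, and HLA-DOA and HLA-DPA1 have points in the controls alone.

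The class II list was split. Of 13 genes, 6 were open (HLA-DRA, HLA-DRB1, HLA-DQB1, HLA-DMA, HLA-DMB and HLA-DPB1), 3 were silent (HLA-DQA1, HLA-DQA2 and HLA-DQB2) and 4 were partial (HLA-DRB5, HLA-DOA, HLA-DOB and HLA-DPA1). The number with a region at an end was 9 and 10 in the controls and 8 and 7 with FOXD2. The FOXD2 counts were lower by 1 to 3 genes, beside the shares over all genes given above (72.9% and 71.1% against 72.0% and 69.3%), and this difference was not tested.

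Among the presenting chains, HLA-DRB1 (chr6:32578775-32589848), the DR beta chain, stood highest, at percentiles of 84.0, 81.1, 87.3 and 87.2, and its interval overlapped the promoter printed above in each library. HLA-DRA (chr6:32439887-32445046), the DR alpha chain, stood at 67.6 and 80.5 in the controls and 57.7 and 17.4 with FOXD2. Both FOXD2 libraries were below both controls, with the wider gap in FOXD2 replicate 2. The −log10 q there was 20.0, 34.5, 12.4 and 5.53. HLA-DRB5, a second DR beta gene, stood at 24.1, 29.5 and 62.6 and had no region in FOXD2 replicate 2. HLA-DQB1 was open at 77.8, 61.5, 75.2 and 70.7, whereas its partner HLA-DQA1 was silent, so the DQ pair had an open beta gene beside an alpha gene with no region. HLA-DPB1 stood at 27.9 and 24.5 in the controls and 58.4 and 44.5 with FOXD2, higher in both.

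The editors of class II peptide loading also differed. HLA-DMA and HLA-DMB encode the chains of HLA-DM, which exchanges peptides, and HLA-DOA and HLA-DOB those of its inhibitor HLA-DO. HLA-DMB stood at 65.2 and 70.6 in the controls and 84.2 and 73.4 with FOXD2. HLA-DMA stood at 74.5, 66.1, 82.4 and 17.3, with the lowest value in FOXD2 replicate 2 and the highest in FOXD2 replicate 1. HLA-DOB had no region in control replicate 1 and weak ones in the others, at 9.40, 10.6 and 15.8.

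HLA-DOA (chr6:33004182-33009591, minus strand) had an interval across its start in both controls and none there with FOXD2. In control replicate 1 it ran over chr6:33009317-33009797 with a −log10 q of 17.9, a fold enrichment of 7.58 by the authors' caller and a percentile of 64.6. In control replicate 2 it ran over chr6:33009358-33009796 with a −log10 q of 11.2, a fold of 5.81 and a percentile of 48.2. FOXD2 replicate 1 had a 200 bp interval inside the gene (chr6:33007488-33007687, −log10 q 5.43, percentile 20.4), and FOXD2 replicate 2 had none at the gene. The promoter window printed above overlaps both control intervals. A distal region 3765 bp from the gene (chr6:33000024-33000417) was in all 4 libraries, at percentiles of 53.1 and 47.6 in the controls and 66.2 and 61.6 with FOXD2, the opposite order.

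How often a region of both controls was absent with FOXD2 varied with its strength in the controls. Over the genome, 1415 gene-end regions were in both controls with a lower percentile between 40 and 60, as for HLA-DOA, and 53 of them (3.75%) were in neither FOXD2 library. With a lower percentile of up to 20 the share was 25.7%, and above 60 and up to 80 it was 0.0367%. A region below the calling threshold is absent from a list, so absence does not show that the site was closed, and fewer cells with an open site cannot be told apart from a less open site in every cell.

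HLA-DPA1 (chr6:33064569-33080748, minus strand), the DP alpha chain, was the other class II gene with a region at an end in the controls alone. Its region (chr6:33080950-33081339) lay upstream of the outer of its 2 annotated starts and inside HLA-DPB1. The −log10 q there was 6.71 and 4.84 and the percentiles were 26.6 and 11.2, both weaker than at HLA-DOA. The HLA-DPB1 promoter region (chr6:33075336-33076205) lay inside the body of HLA-DPA1 and was in all 4 libraries, so the stretch shared by these genes was not without open sites in the FOXD2 libraries. SAPCD1 in class III was the third gene of the MHC with an end lost, at −log10 q of 10.7 and 7.46. These 3 of 172 genes (1.74%) compare with 0.851% of all genes. No MHC gene had an end region in both FOXD2 libraries alone, against 0.466% of all genes.

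**Figure D4:**
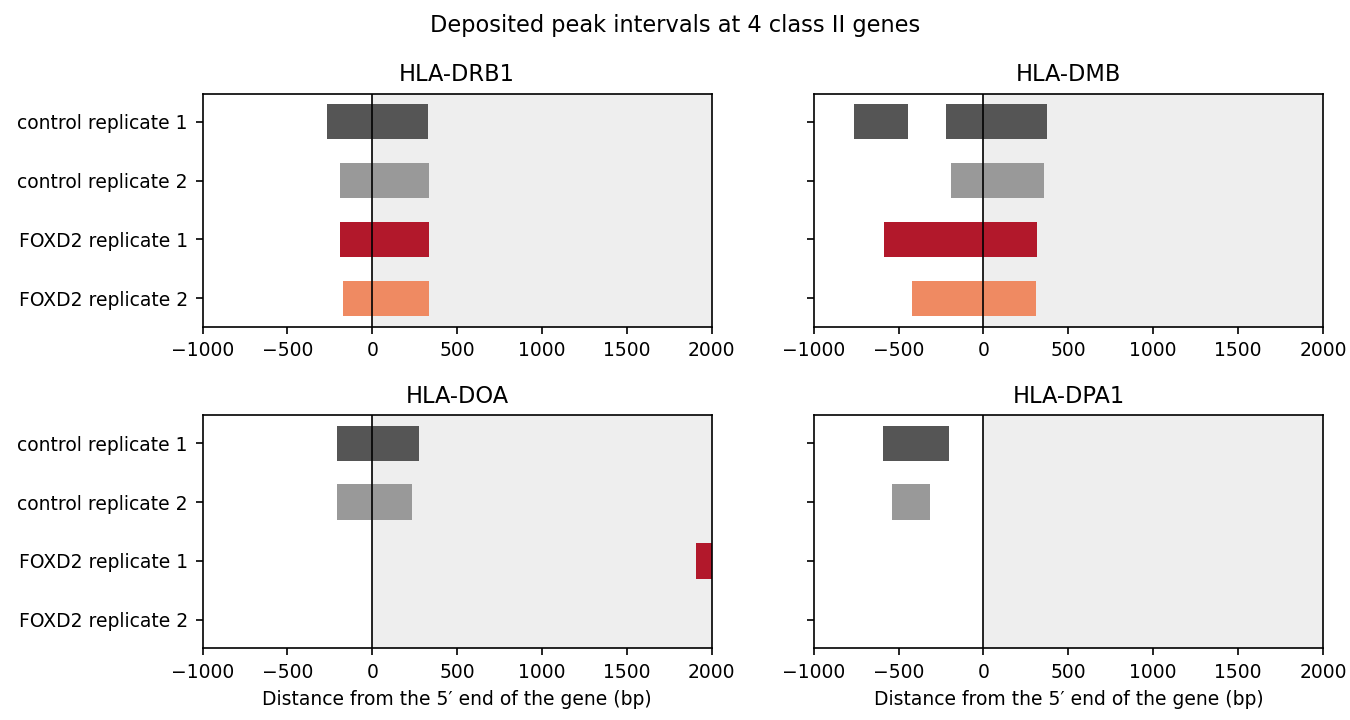
Deposited peak intervals of each library around the 5′ end of 4 class II genes, in bp from that end with the gene body shaded to the right. HLA-DRB1 and HLA-DMB have an interval across the end in all 4 libraries, HLA-DOA in both controls alone, and HLA-DPA1 has control intervals upstream of the end and none with FOXD2.

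The regulators of these genes lie outside the MHC. Of 17 listed, 16 were open in all 4 libraries, among them CIITA (percentiles 97.9, 95.1, 92.9 and 92.0), the subunits of the factors that bind class II promoters (RFX5, RFXANK, RFXAP, NFYA, NFYB and NFYC), the class I co-activator NLRC5 and the interferon gamma receptor and its kinases. B2M, the light chain of class I, was open at 89.1, 94.5, 91.0 and 82.0. For these 16 genes the values belong to the strongest region at either outer end, which need not be the start. CD74, the invariant chain of class II, had no region within 1000 bp of an end but had one inside the gene in all 4 libraries, at 74.6, 78.5, 76.7 and 65.7.

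Of 10 immune genes in class III, LTB and C2 were open, LST1 and CFB were partial, and the other 6 (TNF, LTA, NCR3, AIF1, C4A and C4B) had no region at an outer end in any library, where 23.1% of all genes had none. LTB, which encodes lymphotoxin beta, stood at 95.0, 88.5, 89.9 and 84.6, beside TNF with no region. This LTB region lay inside the gene and nearer its far end. Across the 5′ end of LTB only control replicate 2 had an interval, at a percentile of 6.62. LTA was silent at its outer ends but had a weak region at an annotated start, at 31.8, 44.5, 27.4 and 35.3. CFB, complement factor B, had at its far end a region in 3 libraries (63.8, 66.4 and 49.6) and none in control replicate 1. The 3 heat shock genes HSPA1A, HSPA1B and HSPA1L were open, with HSPA1B at 95.3, 94.1, 96.5 and 93.3. HSPA1A and HSPA1L are neighbours and were called by the same region inside HSPA1L, at 76.2, 68.8, 74.3 and 56.7. Nearer the start of HSPA1A, weaker intervals were in control replicate 1 (2.62 and 7.82) and FOXD2 replicate 1 (35.3) alone. The strongest ends of class III were those of NELFE and SKIC2 (lowest percentile 97.7), VARS1 (94.0) and MSH5 (94.0), which serve transcription, RNA decay, translation and meiosis. Elsewhere the strongest ends were ABCF1 (97.7), CCHCR1 with TCF19 (94.7) and PPP1R10 with MRPS18B (94.6) in class I, and KIFC1 (96.8), PHF1 (95.1) and DAXX with SMIM40 (92.9) in class II.

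Of the 40 tRNA genes of the MHC, all lay in the extended class I stretch, 9.03% of the 443 in the table. tRNA genes are transcribed by RNA polymerase III from promoters inside the gene. A region overlapped 32 of the 40 (80.0%) in all 4 libraries, against 58.0% of all tRNA genes and 225 of the 403 outside the MHC (55.8%). TRF-GAA6-1 and TRM-CAT3-1 had none in any library. Of the 79 distal regions of this stretch, 36 (45.6%) overlapped a tRNA gene, so the part with the fewest open protein-coding genes kept many open sites of another kind. The longest stretch of it without a region shared by all 4 libraries was 422 kb, past the tRNA genes and among the olfactory receptor genes.

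The number of MHC tRNA genes with a region was 37 and 38 in the controls and 35 and 33 with FOXD2. Outside the MHC it was also lower with FOXD2, at 232 and 234 against 246 and 239 in the controls. TRA-AGC5-1 (chr6:28710589-28710660) was overlapped in both controls, at percentiles of 17.2 and 44.2, and in neither FOXD2 library. The 30 regions over tRNA genes that all 4 libraries shared had median percentiles of 79.1 and 78.5 in the controls and 75.6 and 66.1 with FOXD2. Over all shared regions the medians were 73.9 and 72.0 in the controls and 75.2 and 68.3 with FOXD2, so FOXD2 replicate 2 was lowest there too. Of the 30 tRNA regions, 9 (30.0%) ranked below both controls in each FOXD2 library and 1 (3.33%) ranked above them. The same held outside the MHC, where 59 of 188 shared tRNA regions (31.4%) ranked lower and 16 (8.51%) higher. Among those that ranked lower, TRA-TGC7-1 stood at 84.7 and 76.3 in the controls and 67.4 and 46.1 with FOXD2. TRF-GAA4-1 was the one that ranked higher, at 42.4, 16.1, 52.5 and 47.3.

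**Figure D5:**
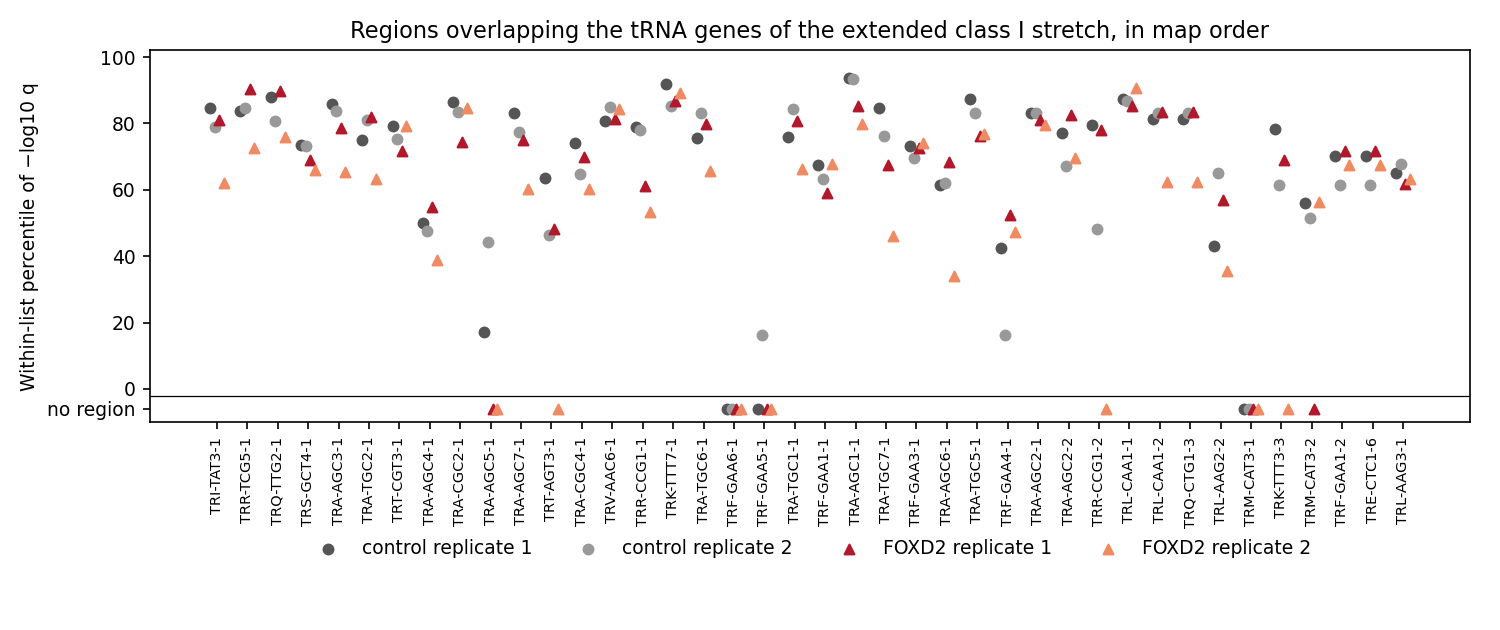
Within-list percentile of −log10 q of the strongest region over each of the 40 tRNA genes of the MHC, in map order, with circles for controls and triangles for FOXD2 libraries; points under the line have no region. Most genes have all 4 points between 40 and 95, and FOXD2 replicate 2 is often the lowest. That library also has the lowest median over all shared regions of the genome.

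Regions present in one group alone made up a smaller share of the MHC than of the genome. Gained regions, those in both FOXD2 libraries and neither control, were 9 of 509 (1.77%) against 3.89% of all regions, and lost regions, the reverse, were 14 (2.75%) against 3.87%. By part, 8 were gained and 9 lost in class I, 0 and 1 in class III, and 1 and 4 in class II. None of the 9 gained regions lay at a gene end, while 3 of the 14 lost ones did. Over the genome, gene ends were 203 of 2383 lost regions with a lower percentile of up to 20. They were 133 of 1577 above 20 and up to 40, and 53 of 706 above 40 and up to 60. The share of gained regions at gene ends over the genome is not given here. Among regions of both controls with a lower percentile of up to 20, 20.0% were lost in the MHC and 31.3% over the genome. Above 20 and up to 40 the shares were 9.68% and 17.9%, and above 60 and up to 80 they were 0% and 0.720%. Above 40 and up to 60 they were 9.62% (5 of 52) and 6.44%, so the MHC was not lower at every strength. The MHC counts are small, and whether they differ from the genome was not tested. Among the 246 shared regions, 53 (21.5%) ranked lower in both FOXD2 libraries and 36 (14.6%) higher, near the shares over the genome. The 2 kinds were 21 and 20 in class I proper, 11 and 4 in the extended class I stretch, 12 and 5 in class III, 4 and 7 in class II proper and 5 and 0 in the extended class II stretch.

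The gained region with the highest lower percentile lay 19367 bp from the olfactory receptor gene OR14J1 (chr6:29332384-29332855, −log10 q 8.40 and 12.2 in FOXD2 replicates 1 and 2). The next lay 23993 bp from TRIM27 (chr6:28947978-28948217, 11.1 and 8.97) and 6849 bp from TRIM31 (chr6:30095464-30096048, 18.0 and 8.58). Others lay inside PSORS1C1 and VPS52, over the pseudogenes DDX39BP2 and HLA-V, and 29698 bp from HLA-G.

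Among the stronger lost regions were one inside PPP1R10 (chr6:30614936-30615171, −log10 q 11.5 and 14.1 in control replicates 1 and 2) and the HLA-DOA start. HLA-G had in the controls alone a region inside the gene (chr6:29828279-29828709, 19.0 and 7.58), the only one at this gene in any library, at percentiles of 66.1 and 32.0. HLA-G was partial by annotated starts, so this region lay near such a start. The genes given above with an end lost were counted by outer ends only and leave HLA-G out. Others lay 2711 bp from MICB over MICB-DT (9.35 and 10.4), 129646 bp from TRIM27 (9.76 and 9.14) and inside TRIM10 (11.9 and 8.84). The weakest, beside SAPCD1, TRA-AGC5-1 and HLA-DPA1 above, lay inside CCHCR1 and near OR2I1, OR2J2 and RING1, each with a lower percentile under 11.

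The strongest distal sites were shared by all 4 libraries and differed in setting. In class I they were led by a region inside PPP1R11 (chr6:30066552-30067667, percentiles 98.4, 97.1, 97.0 and 96.9) and another 49971 bp from the TRIM39-RPP21 readthrough gene (chr6:30396829-30397925, lowest percentile 93.1). A further one lay 9577 bp from HLA-B (chr6:31366756-31367543) over the pseudogene DHFRP2, at 94.8, 89.2, 93.4 and 88.8. In class II the strongest lay 34182 bp from PSMB9 over the non-coding gene LOC100294145 (chr6:32894033-32895295), at 95.5, 98.7, 96.3 and 96.7. Another lay 19947 bp from HLA-DRB1 (chr6:32609795-32610427), at 86.3, 92.4, 89.8 and 84.4, at the edge of a 54.4 kb stretch that held HLA-DQA1 and no region in any library. The longest such stretch of the MHC, 113.7 kb, covered most of TSBP1 at the start of class II. In class III the strongest lay inside TNXB (chr6:32087149-32088221), at 94.3, 92.6, 96.9 and 90.8, followed by one over the host gene SNHG32 of the small nucleolar RNA SNORD48 (chr6:31834366-31835387), at 88.3 and 87.9 in the controls and 78.6 and 84.7 with FOXD2.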

How the data were processed

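The submitters' processing notes name hg38, MACS2 2.2.7.1, Bowtie2 2.3.4.1, cutadapt 3.4, bedtools and Picard; for settings and any Tn5 shift, nothing is given in the sources used here. Per library, the authors deposited 1 peak list, with a fold enrichment (ratio), −log10 p, −log10 q and a score per interval; the score and −log10 p were not used. The lowest deposited −log10 q was 2.00 to 2.03. Read depth is unknown, which limits precision at weak sites.

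Intervals on chromosomes 1 to 22 and X overlapping by 1 bp were merged (Python 3.11.15, pandas 2.3.3) and the merging was tested on simulated data. Gene positions came from RefSeq (GRCh38.p14), with 19970 protein-coding genes, and promoter windows for 154 of the 172 MHC genes. Strand and starts came from the windows. Library shares were compared by an exact permutation test, with the replicate block as an alternative. Named were all genes of the lists, HLA-DOA, every gained or lost region by the lower of its percentiles, and the top distal sites and gene ends of each part. The members and lists were chosen with earlier results of these data known, and the tRNA values, the percentile ranks of shared regions and the loss by peak strength were added after seeing the data. Some results on these lists and regions are not reported here.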

Additional observations from a re-analysis of the deposited data

How the results depend on the processing

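The difference in MHC share, -0.00532 percentage points, turned to 0.0121 with intervals of −log10 q 5 or more and ranged from -0.0312 to 0.0185 leaving out 1 library; it was 0.00343 without control replicate 2 and 0.0185 without FOXD2 replicate 1. With the replicate block it was -0.00532 (exact p = 1); the numbers share only a label, and the difference was -0.0254 for number 1 and 0.0147 for number 2. The 9 gained regions became 5 where both libraries needed −log10 q 5, and 18 to 61 leaving out 1 library. The 14 lost became 9 with lists of equal length, 8 without the extended stretches, 9 where both libraries needed −log10 q 5, and 29 to 53 leaving out 1 library. Distal sites over 5000 bp from gene ends were 63.5% in class I, 27.6% in class III and 39.7% in class II, from 81.6%, 51.4% and 64.7%; at −log10 q 5 the class II share was 59.2%. Open genes of the class II part were 11 of 20 in class II proper. At HLA-DOA a window of 2000 bp took in the FOXD2 replicate 1 interval inside the gene, leaving a difference of 1 library in place of 2. Of 75 values under alternatives, 52 stayed the same, 20 moved and 3 reversed. With 2 libraries a group, and no read counts, a missing region cannot be told from a weak one.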
